A study of Mus musculus with 12 samples.

Results

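Cadherin and protocadherin genes were followed across the 4 groups of an RNA-seq experiment on mouse striatal cells. The members were taken by name: every gene of the expression table called Cdh followed only by a number, or with a name that begins with Pcdh. This gave 73 of the 29428 genes in the table. They comprised 18 Cdh genes, 9 unclustered Pcdh genes and the clustered protocadherins, of which 3 were Pcdha, 21 Pcdhb and 22 Pcdhg genes. STHdhQ7 and STHdhQ111 are immortalized striatal lines from knock-in mice, the former (STHdhQ7/Q7) normal and the latter (STHdhQ111/Q111) homozygous for an expanded polyglutamine tract in huntingtin, the Huntington's disease protein. Each genotype was represented by a single line, so line and genotype cannot be told apart. Both lines grew at 33 °C in DMEM with 10% FBS and were taken within 20 passages of purchase. Q7-C and Q111-C denote nontreated cells, and Q7-T and Q111-T denote cells given 100 ng/mL interferon gamma and 5 μg/mL lipopolysaccharide (IFNγ/LPS) for 24 h before RNA was harvested. Poly(A) RNA of 3 samples per group was sequenced, 12 libraries in all, with table counts summing to between 57505990 and 96417834 per library. The study calls the samples of a group biological replicates but does not describe how they were grown apart, and p-values measure the spread between these samples.

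Cadherins are calcium-dependent adhesion molecules. Classical cadherins (types I and II) hold neighbouring cells together through their extracellular repeats, and their cytoplasmic tails bind catenins, which link the junction to actin. Protocadherins have a similar extracellular part but do not bind β-catenin through a classical tail; the unclustered delta protocadherins act in cell sorting and motility. Clustered protocadherins are made from variable first exons, each with its own promoter, and in neurons the combination expressed by a cell helps it to tell its own branches from those of its neighbours. In the Pcdha and Pcdhg clusters each variable exon is spliced to constant exons that the genes of the cluster share, so read assignment between them is uncertain.

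5 unclustered members changed at least 2-fold with IFNγ/LPS in STHdhQ111 cells, as described below, and the 250 bases before their annotated starts are shown as the promoter windows of these responding genes. They were copied from the RefSeq promoter table (GRCm38.p6), which held 16 of the 73 members, and are written 5′ to 3′ on the strand of the gene. The windows are chr15:13173676-13173925 for Cdh6 (minus strand), chr15:23036213-23036462 for Cdh18 (plus strand), chr5:57717831-57718080 for Pcdh7 (plus strand), chr3:49757317-49757566 for Pcdh18 (minus strand) and chrX:133688994-133689243 for Pcdh19 (minus strand). The RefSeq start of Cdh18 lies inside the gene as the expression table places it, chr15:22549022-23474418, and so does that of Pcdh7, whose window runs past the table's start of the gene (chr5:57717967-58133230). Capitals mark E-boxes (CANNTG), ISRE cores (GAAANNGAA, or its complement) and CCAAT boxes, which read ATTGG where the box lies on the opposite strand.
Cdh6 promoter: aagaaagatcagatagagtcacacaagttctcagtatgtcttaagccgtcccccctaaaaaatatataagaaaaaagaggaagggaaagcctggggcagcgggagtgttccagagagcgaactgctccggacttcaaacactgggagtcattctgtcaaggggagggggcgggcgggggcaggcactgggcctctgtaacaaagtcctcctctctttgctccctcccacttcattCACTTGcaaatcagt
Cdh18 promoter: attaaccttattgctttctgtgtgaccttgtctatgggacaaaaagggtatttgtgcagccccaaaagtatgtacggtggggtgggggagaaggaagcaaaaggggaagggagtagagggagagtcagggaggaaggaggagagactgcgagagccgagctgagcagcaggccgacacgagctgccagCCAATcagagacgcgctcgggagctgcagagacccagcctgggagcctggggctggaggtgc
Pcdh7 promoter: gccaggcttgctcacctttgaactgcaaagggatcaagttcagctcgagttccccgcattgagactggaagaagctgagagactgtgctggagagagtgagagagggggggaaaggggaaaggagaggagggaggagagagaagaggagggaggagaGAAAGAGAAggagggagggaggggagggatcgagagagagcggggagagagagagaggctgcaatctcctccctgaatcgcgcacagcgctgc
Pcdh18 promoter: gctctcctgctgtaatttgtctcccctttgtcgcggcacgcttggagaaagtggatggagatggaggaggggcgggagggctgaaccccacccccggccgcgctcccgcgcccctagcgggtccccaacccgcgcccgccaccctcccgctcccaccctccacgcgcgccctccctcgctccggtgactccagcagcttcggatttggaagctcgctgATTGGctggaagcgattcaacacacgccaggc
Pcdh19 promoter: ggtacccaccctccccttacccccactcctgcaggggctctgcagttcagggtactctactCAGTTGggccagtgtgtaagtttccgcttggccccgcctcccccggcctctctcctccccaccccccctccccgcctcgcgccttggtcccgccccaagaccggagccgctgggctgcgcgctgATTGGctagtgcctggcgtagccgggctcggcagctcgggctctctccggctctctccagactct

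Both strands were searched for 7 motifs. Besides the E-box, ISRE core and CCAAT box these included a short form of the NF-κB site (GGGNNTTCC). NF-κB mediates much of the lipopolysaccharide response, but this short form does not stand for its full site. Of all 32851 promoters of the table, 4.98% held this short NF-κB form. The AP-1 site (TGANTCA) was found in 6.75% of them, the TATA box of many regulated genes (TATAAA) in 12.4%, and the CRE bound by CREB (TGACGTCA) in 1.55%. These 4 motifs occurred in none of the 5 windows. The same held for a longer form of the NF-κB site that was searched first. The ISRE core occurred in 7.13% of all promoters and once in the purine-rich Pcdh7 window, where a form with 1 more A at its end, searched first, was not found. E-boxes occurred in 66.2% of all promoters and in the windows of Cdh6 and Pcdh19. CCAAT boxes occurred in 33.8% of all promoters and in the windows of Cdh18, Pcdh18 and Pcdh19. The GC content of the 5 windows ran from 51.2% in Cdh6 to 69.2% in Pcdh19, against a median of 52.4% over all promoters. A match is a description of letters only, and the absence of one says nothing of the factor.

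The labels give both lines as neuronal cells of the striatum. Of the 8 neuron genes measured, Snap25 and Syt1, which act in synaptic vesicle release, did not exceed 0.025 TPM (normalised transcript abundance, corrected for transcript length and library size) in any library. Stmn2, which encodes a neuronal microtubule regulator, averaged 73.5 TPM in Q7-C but 2.00 TPM in Q111-C. The striatal neuron factor Bcl11b did not exceed 0.0407 TPM. Vim, the mesenchymal intermediate filament, averaged from 1186 TPM in Q111-T to 2493 TPM in Q7-C. Other members of these lists were measured in every group, with group means of 7.73 to 11.3 TPM for the postsynaptic scaffold gene Dlg4 and 6.98 to 11.95 TPM for the transcription factor gene Foxp1. The 7 medium spiny neuron genes summed to 6.73 to 8.62 TPM for Q7-C and 9.81 to 11.3 for Q7-T, against 14.5 to 18.9 for Q111-C, where Penk averaged 4.93 TPM, and 14.0 to 15.8 for Q111-T. The neuron list summed to 102 to 114 TPM for Q7-C and 137 to 177 for Q7-T, against 18.5 to 23.0 for Q111-C and 41.3 to 47.8 for Q111-T. Tubb3, a neuronal tubulin gene, was higher with treatment in both lines (16.9 and 74.6 TPM, 3.91 and 24.7 TPM). Map2 of the same list was lower with treatment, at 7.93 and 2.13 TPM in STHdhQ7 and 5.90 and 5.61 TPM in STHdhQ111 cells. The 8 astrocyte genes summed to 22.5 to 40.4 TPM in Q7-C and 76.3 to 92.1 TPM in Q111-C. Most of this was Gja1, with means of 30.0 and 72.9 TPM, and Slc1a3 averaged 0.902 and 9.86 TPM. Gfap, Aqp4, Slc1a2 and S100b, 4 of the 8 genes, stayed under 0.5 TPM in every library. Aldh1l1 was lower in Q111-C (0.0384 TPM) than in Q7-C (0.364 TPM). The part of these lists in the line differences and responses below was not tested. The 5 microglia and macrophage genes measured summed to at most 0.919 TPM in any library.

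3 libraries stood apart: Q7-C replicate 1, Q7-T replicate 2 and Q111-T replicate 2. Genes with a longest transcript over 6 kb differed from the other replicates of the group by a median of -1.18 to -0.585 on the log2(TPM + 0.5) scale in these libraries, against -0.146 to 0.677 in the other 9, while genes under 2 kb differed by a median of 0.0292 to 0.119 in the 3 libraries. Cadherin transcripts are long: the longest annotated transcript of the 28 members that passed the expression filter had a median of 4701 bases (range 2744 to 10289), against 2816 bases for all genes tested. Q7-C replicate 1 gave the lowest TPM of its group for 20 of these 28 members, Q7-T replicate 2 for 25 and Q111-T replicate 2 for 16. Q111-C replicate 1, which was not set apart, gave the lowest for 15, with a median of -0.146 for genes over 6 kb. Every call on a named member was also fitted without the 3 libraries, and 38 of 38 calls held with the same sign. With offsets adjusted for transcript length, 36 of 38 held, the exceptions being the line difference of Pcdhgb7 in treated cells and the Q7 response of Pcdh19.

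**Figure D1:**
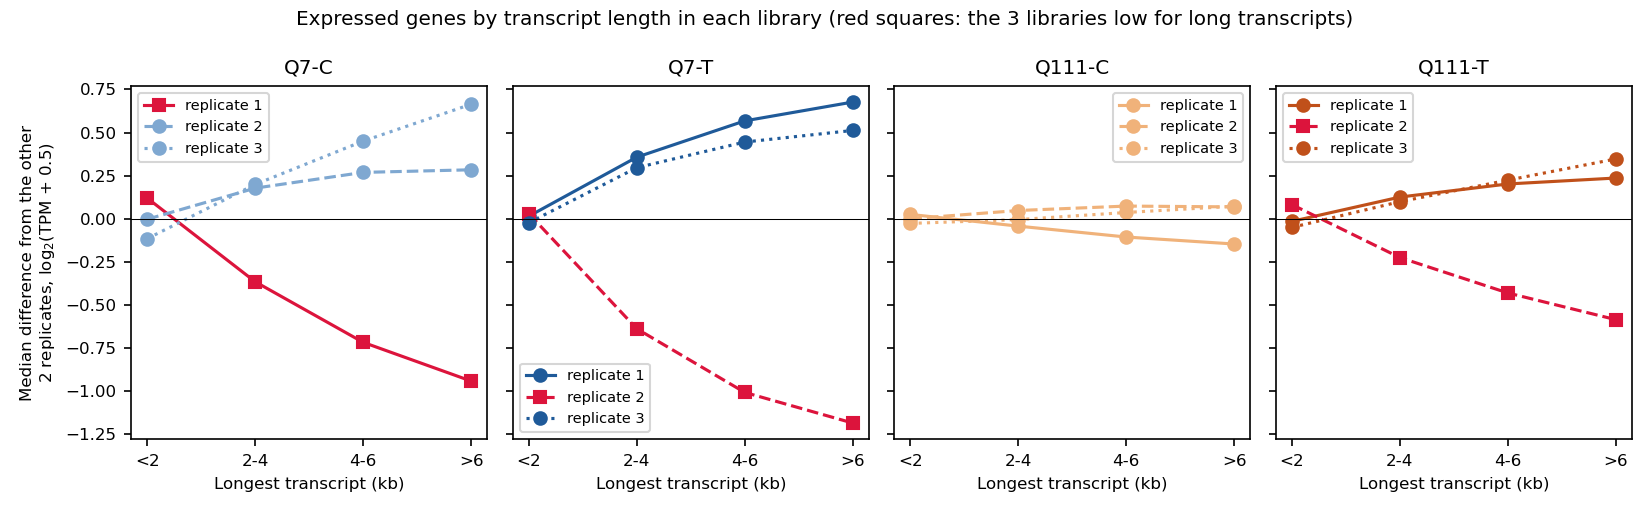
Median difference of each library from the other 2 replicates of its group (vertical axis, log2(TPM + 0.5)) for expressed genes grouped by the length of their longest transcript (horizontal axis, kb). Lines are single libraries, and the 3 libraries drawn as red squares fall with transcript length to between -1.18 and -0.585, whereas the others stay between -0.146 and 0.677 for genes over 6 kb.

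28 of the 73 members reached 0.5 TPM in at least 3 libraries and were tested within the fit over 16127 genes, and 45 did not. A gene was called when its adjusted p was under 0.05 and its fold change at least 2 (edgeR quasi-likelihood test, Benjamini-Hochberg over all genes tested). In Q111-C vs. Q7-C, 8 members were higher and 9 lower in STHdhQ111 cells, with 15.2% of all genes called (7.62% higher, 7.61% lower). In Q111-T vs. Q7-T, 7 were higher and 11 lower, with 24.5% called (13.3% higher, 11.2% lower). These counts are no support for a difference peculiar to the family, because 7 of the 28 reached 0.5 TPM in STHdhQ7 libraries only and 6 in STHdhQ111 libraries only, so that they entered the test through the line in which they were high. Without the filter, 16 of 73 members were called in nontreated (all genes 8.51%) and 18 of 73 in treated cells (all genes 13.5%), 1 of 73 for the Q7 response (2.04%), 6 of 73 for the Q111 response (5.96%) and 2 of 73 for the difference of the responses (2.17%). IFNγ/LPS gave 0 higher and 2 lower members in Q7-T vs. Q7-C (4.04% of all genes called, 2.93% higher and 1.11% lower) and 2 higher and 3 lower in Q111-T vs. Q111-C (11.2%, 8.28% higher and 2.96% lower). The responses of 2 members differed between the lines (4.71% of all genes, 3.52% with the higher value in STHdhQ111 cells), both with the higher value in STHdhQ111 cells. The median log2 fold change of the 28 members was 0.06, -0.18, -0.17 and -0.39 in these 4 comparisons in the order given, against -0.02, -0.03, 0.00 and -0.01 over all genes tested. In RNA from whole cultures, fewer cells that express a gene and less RNA per cell cannot be told apart.

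By TPM, a per-length level, the most abundant members over the 12 libraries were Pcdhgc3 (mean 38.8 TPM), Cdh2 (26.0), Cdh24 (14.7), Pcdh18 (13.1), Pcdh19 (9.79), Cdh13 (9.24) and Pcdhgb2 (8.94). No other member averaged more than 3.41 TPM, the mean of Pcdh7. The order differed between the lines, with group means for Cdh2 of 48.7 and 30.1 TPM in untreated and treated STHdhQ7 cells, above Pcdhgc3 at 29.2 and 27.1 TPM, and means for Pcdhgb2 of 18.1 and 17.2 TPM there against 0.223 and 0.207 TPM in STHdhQ111 cells.

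**Figure D2:**
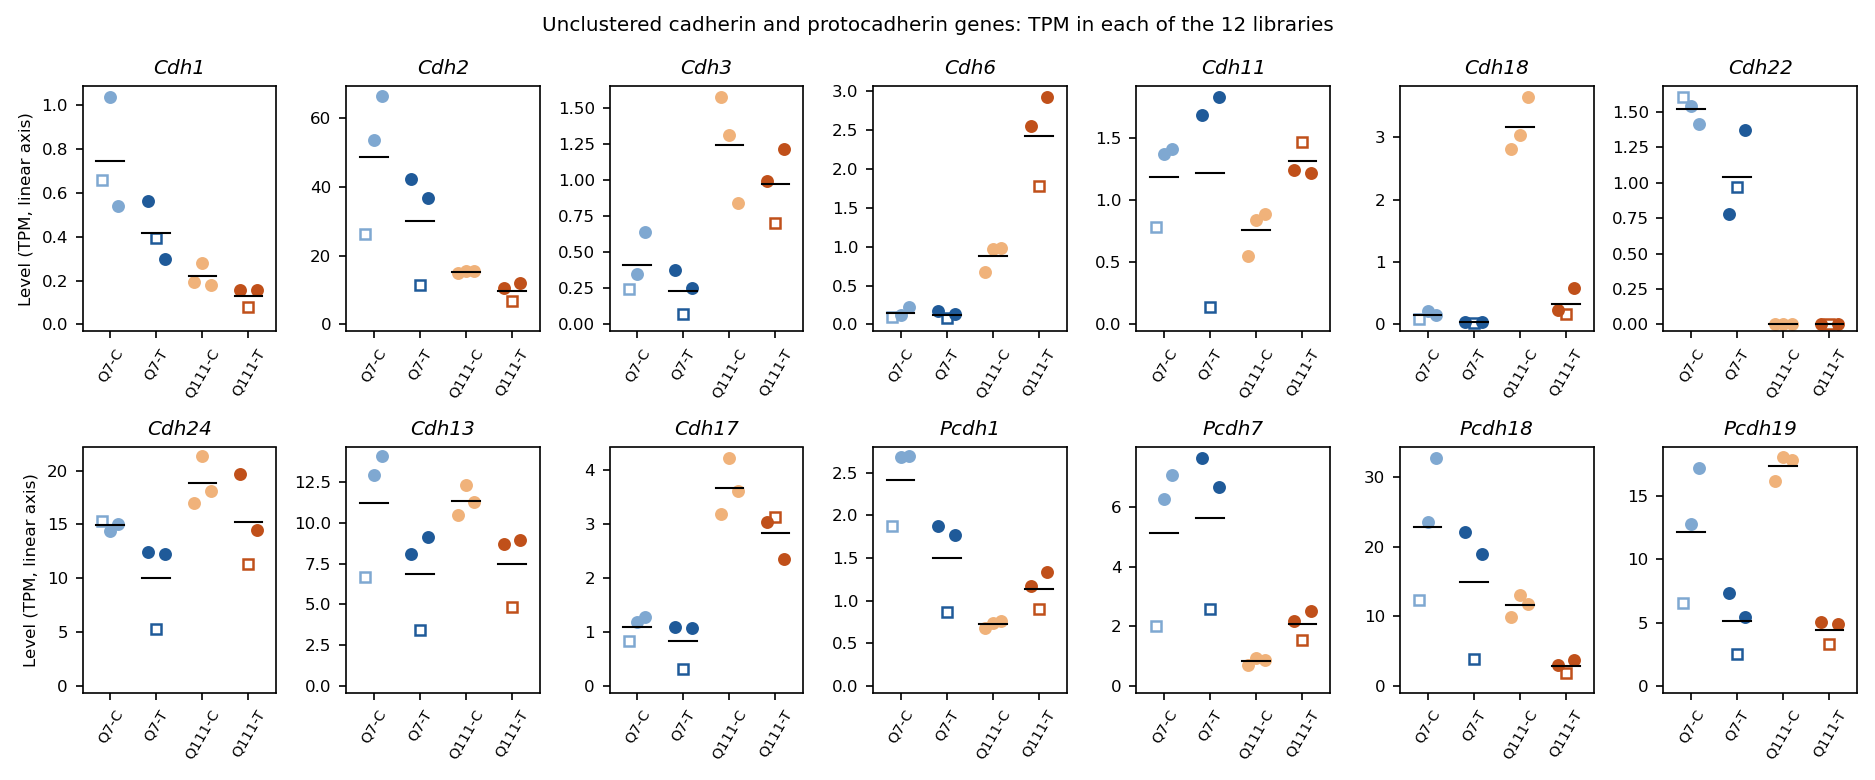
TPM of the 14 unclustered members that passed the filter (vertical axes, linear, each with its own scale) in Q7-C, Q7-T, Q111-C and Q111-T (horizontal axes). Points are single libraries, open squares the 3 libraries low for long transcripts, and bars the group means. Cdh2 is lower in all Q111-C than in all Q7-C libraries, Cdh22 lies at 0 in all 6 STHdhQ111 libraries, and Cdh6 is highest in Q111-T.

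Among type I classical cadherins, STHdhQ111 cells had less Cdh2 and Cdh1 and more Cdh3, with and without treatment. Cdh2 (ENSMUSG00000024304, chr18:16588877-16809246, GRCm38, minus strand) encodes N-cadherin, the main classical cadherin of neurons and mesenchymal cells. Its TPM was 26.4, 53.5 and 66.3 in Q7-C, 42.3, 11.4 and 36.7 in Q7-T, 14.8, 15.5 and 15.6 in Q111-C, and 10.5, 6.66 and 11.9 in Q111-T. Every Q111-C library lay below every Q7-C library, whereas the treated groups overlapped through Q7-T replicate 2, one of the 3 libraries set apart. Cdh2 was lower by a log2 fold change of -1.93 (SE 0.30, adjusted p = 0.000602, edgeR) in Q111-C vs. Q7-C and -1.95 (SE 0.30, adjusted p = 0.000422) in Q111-T vs. Q7-T. Without the 3 libraries the values were -2.14 and -2.04. The mesenchymal list of 10 genes, all measured, summed to between 5860 and 6233 TPM in Q7-C and between 5849 and 6038 TPM in Q111-C, but its members differed between the lines in both directions. From Q7-C to Q111-C the mean TPM went from 1670 to 43.7 for Acta2 and from 80.7 to 2.37 for Tagln, and from 265 to 791 for Col1a1, 14.6 to 250.2 for Col1a2, 27.7 to 136 for Col3a1 and 221 to 646 for Fn1. Their part in the Cdh2 difference was not tested.

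Cdh1 (ENSMUSG00000000303, chr8:106603351-106670246) encodes E-cadherin of epithelial junctions. It was low throughout, at 0.660, 1.04 and 0.540 TPM in Q7-C, 0.561, 0.395 and 0.3002 in Q7-T, 0.193, 0.281 and 0.181 in Q111-C and 0.156, 0.0769 and 0.156 in Q111-T. No STHdhQ111 library reached the lowest STHdhQ7 library. Cdh1 was lower by a log2 fold change of -2.09 (SE 0.43, adjusted p = 0.00389, edgeR) in nontreated and -2.13 (SE 0.43, adjusted p = 0.00273) in treated cells. The 9 epithelial markers, all measured, summed to 42.8 to 69.6 TPM for Q7-C and 20.3 to 43.4 for Q7-T, against 20.1 to 23.4 for Q111-C and 15.9 to 18.3 for Q111-T, most of it Krt19. The mean of Krt19 went from 46.1 TPM in Q7-C to 13.4 TPM in Q111-C, whereas Krt18 (1.08 and 5.72 TPM) and Epcam (0.379 and 1.07 TPM) were higher in Q111-C. Their part in the Cdh1 difference was not tested.

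Cdh3 (ENSMUSG00000061048, chr8:106510891-106557297) encodes P-cadherin and neighbours Cdh1 on the chromosome. It moved the opposite way, with 0.246, 0.348 and 0.636 TPM in Q7-C, 0.375, 0.0721 and 0.249 in Q7-T, 1.58, 1.31 and 0.839 in Q111-C and 0.996, 0.700 and 1.21 in Q111-T. The lines did not overlap. Its log2 fold change was 1.32 (SE 0.43, adjusted p = 0.0476, edgeR) in nontreated cells, close to the threshold, and 1.74 (SE 0.44, adjusted p = 0.00952) in treated cells. The nontreated call was lost without Q7-C replicate 1 or 2, without Q7-T replicate 3, without Q111-C replicate 1 or 2, and without any of the 3 Q111-T libraries, with values from 1.13 to 1.70 over all 12 libraries left out in turn. It was also lost without the expression filter and in 2 of 3 limma fits on TPM, and 12 of 26 alternatives lost it in all. None of the 3 genes was called for IFNγ/LPS in either line.

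Among type II classical cadherins, Cdh6, Cdh18 and Cdh22 differed between the lines, whereas Cdh24 and Cdh11 were not called. Cdh6 and Cdh18 reached 0.5 TPM in STHdhQ111 libraries only and Cdh22 in STHdhQ7 libraries only. These genes entered the test through the line in which they were high, so their large differences are no support for a trait of this type. Cdh6 (ENSMUSG00000039385, chr15:13028701-13173675), known from kidney and neural crest, was low in STHdhQ7 cells and rose with IFNγ/LPS in STHdhQ111 cells. Its TPM was 0.0894, 0.125 and 0.228 in Q7-C, 0.168, 0.0795 and 0.130 in Q7-T, 0.677, 0.976 and 0.980 in Q111-C, and 2.56, 1.79 and 2.93 in Q111-T. The order was the same in every library, with Q111-T above Q111-C and both above all STHdhQ7 libraries. Cdh6 was higher in Q111-C than Q7-C by a log2 fold change of 2.28 (SE 0.29, adjusted p = 0.000169, edgeR) and in Q111-T than Q7-T by 3.88 (SE 0.31, adjusted p = 4.42e-06). IFNγ/LPS raised it by 1.55 (SE 0.28, adjusted p = 0.00237) in STHdhQ111 cells, against -0.05 (SE 0.29, adjusted p = 0.961) in STHdhQ7 cells. The difference of the responses was 1.60 (SE 0.40, adjusted p = 0.0398). That last call was lost in 14 of 25 alternatives, including without any 1 of the 6 STHdhQ111 libraries, Q7-C replicate 2 or 3 or Q7-T replicate 3, with values of 1.26 to 1.74 over the libraries left out in turn.

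Cdh18 (ENSMUSG00000040420, chr15:22549022-23474418), a cadherin of the nervous system, was highest in nontreated STHdhQ111 cells and fell with treatment. It measured 0.0905, 0.212 and 0.147 TPM in Q7-C, 0.0444, 0.0226 and 0.0421 in Q7-T, 2.81, 3.03 and 3.64 in Q111-C, and 0.227, 0.163 and 0.578 in Q111-T. The Q111-C libraries lay far above all others, and no pair of groups compared overlapped. It was higher in Q111-C than Q7-C by a log2 fold change of 4.08 (SE 0.44, adjusted p = 4.55e-05, edgeR) and fell by 3.20 on the log2 scale with IFNγ/LPS in STHdhQ111 cells (SE 0.42, adjusted p = 0.000248). In Q7-T it rested on 5 read pairs in all, taking 4 estimated counts as 1 read pair. The Q111-T to Q7-T ratio of pooled read pairs was 6.57 (95% exact interval 2.56 to 21.5, counting error only; adjusted p = 0.000784 in the edgeR fit). The Q7-C to Q7-T ratio was 3.63 (interval 1.32 to 12.4; adjusted p = 0.039 in the edgeR fit), a call that was lost in 15 of 26 alternatives. Among these were all 3 Q7-T libraries, all 3 Q111-C libraries and Q7-C replicates 2 and 3, each left out in turn, with log2 fold changes of -1.94 to -1.57. The difference of the responses was -1.39 (SE 0.61, adjusted p = 0.231, edgeR) and was not called, but was -2.03 (adjusted p = 0.0414) without Q111-T replicate 3. It was also called in the 3 limma fits on TPM, with values of -2.22 to -1.51.

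Cdh22 (ENSMUSG00000053166, chr2:165111507-165234853), a cadherin of pituitary and brain, was detected only in STHdhQ7 cells. Its TPM was 1.60, 1.54 and 1.42 in Q7-C and 0.780, 0.969 and 1.37 in Q7-T. All 6 STHdhQ111 libraries had 0 counts. Taking 3 read pairs (12 estimated counts) per library as the floor, Cdh22 was at least 20.6-fold higher in Q7-C than Q111-C (adjusted p = 5.25e-05, edgeR) and at least 14.0-fold higher in Q7-T than Q111-T (adjusted p = 5.3e-05). Q7-T lay below Q7-C in every library, but the log2 fold change of -0.35 (SE 0.41, adjusted p = 0.777) was not called.

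The most abundant type II member, Cdh24 (ENSMUSG00000059674, chr14:54631231-54641364), was not called in any of the 5 comparisons. Its TPM was 15.3, 14.4 and 15.0 in Q7-C, 12.4, 5.29 and 12.2 in Q7-T, 16.996, 21.3 and 18.1 in Q111-C, and 19.7, 11.3 and 14.5 in Q111-T. Although the Q111-C libraries lay above the Q7-C libraries in TPM, the log2 fold change with TMM scaling was -0.01 (SE 0.22, adjusted p = 0.985, edgeR). The median over all genes tested was 0.27 on the log2(TPM + 0.5) scale and -0.02 with TMM scaling in this comparison, and 0.34 and -0.03 in Q111-T vs. Q7-T, so TPM levels are offset between the lines. Cdh11, a mesenchymal cadherin first described in osteoblasts, ranged from 0.140 to 1.84 TPM over the 12 libraries and was not called either. Cdh11 was nevertheless higher in all 3 Q111-T than in all 3 Q111-C libraries, at a log2 fold change of 0.91 (SE 0.55, adjusted p = 0.319, edgeR).

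Of the cadherins that do not act through catenins, Cdh17 was higher in STHdhQ111 cells and Cdh13 did not pass the test. Cdh17 (ENSMUSG00000028217, chr4:11758147-11817895) encodes liver-intestine cadherin, which has a very short cytoplasmic tail. It measured 0.828, 1.176 and 1.28 TPM in Q7-C, 1.09, 0.320 and 1.08 in Q7-T, 3.19, 4.23 and 3.62 in Q111-C and 3.04, 3.14 and 2.35 in Q111-T. The lines did not overlap in either condition. The log2 fold change was 1.44 (SE 0.30, adjusted p = 0.00406, edgeR) in nontreated and 1.49 (SE 0.30, adjusted p = 0.0024) in treated cells, and both calls held in all 26 alternatives. Cdh13 (ENSMUSG00000031841, chr8:118283733-119324921) encodes T-cadherin, which is anchored by a lipid and lacks a cytoplasmic tail. Its TPM was 6.68, 12.9 and 14.1 in Q7-C, 8.06, 3.41 and 9.10 in Q7-T, 10.5, 12.3 and 11.3 in Q111-C and 8.69, 4.84 and 8.97 in Q111-T. All Q111-T libraries were below all Q111-C libraries. The log2 fold change in STHdhQ111 cells was -0.52 (SE 0.23, adjusted p = 0.155, edgeR) and in STHdhQ7 cells -0.56 (SE 0.23, adjusted p = 0.265).

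The delta-1 protocadherins Pcdh1 and Pcdh7 were lower in STHdhQ111 cells. For Pcdh1 the response to IFNγ/LPS also differed between the lines. Pcdh1 (ENSMUSG00000051375, chr18:38185914-38212053) acts in epithelial and neural adhesion. Its TPM was 1.87, 2.68 and 2.69 in Q7-C, 1.87, 0.871 and 1.77 in Q7-T, 0.680, 0.732 and 0.756 in Q111-C, and 1.17, 0.897 and 1.34 in Q111-T. Nontreated lines did not overlap, whereas the treated lines did. The log2 fold change was -2.04 (SE 0.18, adjusted p = 1.19e-05, edgeR) in Q111-C vs. Q7-C and -0.76 (SE 0.18, adjusted p = 0.00608) in Q111-T vs. Q7-T, the latter under 2-fold. With IFNγ/LPS the value was 0.74 (SE 0.18, adjusted p = 0.0135) in STHdhQ111 and -0.54 (SE 0.18, adjusted p = 0.134) in STHdhQ7 cells. The responses differed by 1.28 (SE 0.25, adjusted p = 0.0126), and this call was lost only in the 3 limma fits on TPM.

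Pcdh7 (ENSMUSG00000029108, chr5:57717967-58133230) encodes a protocadherin whose cytoplasmic tail binds protein phosphatase 1. It measured 2.01, 6.28 and 7.08 TPM in Q7-C, 7.65, 2.58 and 6.66 in Q7-T, 0.689, 0.924 and 0.874 in Q111-C, and 2.16, 1.55 and 2.52 in Q111-T. Every Q111-T library lay above every Q111-C library, and both STHdhQ111 groups lay below the STHdhQ7 group of the same treatment. Pcdh7 differed by a log2 fold change of -2.86 (SE 0.34, adjusted p = 9.62e-05, edgeR) in nontreated and -1.76 (SE 0.33, adjusted p = 0.00149) in treated cells. IFNγ/LPS raised it by 1.41 (SE 0.33, adjusted p = 0.0103) in STHdhQ111 cells, against 0.31 (SE 0.32, adjusted p = 0.73) in STHdhQ7 cells. The difference of the responses, 1.10 (SE 0.45, adjusted p = 0.203), was not called with all libraries, but was 1.34 (adjusted p = 0.00105) without the 3 libraries set apart and 1.41 (adjusted p = 0.0279) without Q7-C replicate 1 alone. The Q111 response was not called without Q111-C replicate 1 (1.29, adjusted p = 0.0554). Neither it nor the treated line difference was called in the 3 limma fits on TPM, the values with 1 TPM added being 0.74 and -1.02. An annotated gene on the opposite strand, 4932441J04Rik, overlaps exons of Pcdh7.

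Of 4 delta-2 protocadherins, the 2 that passed the filter, Pcdh18 and Pcdh19, fell with IFNγ/LPS in STHdhQ111 cells. Pcdh18 (ENSMUSG00000037892, chr3:49743296-49757316), which binds the adaptor Dab1, measured 12.3, 23.6 and 32.7 TPM in Q7-C, 22.1, 3.82 and 19.0 in Q7-T, 9.90, 13.1 and 11.8 in Q111-C, and 3.00, 1.84 and 3.78 in Q111-T. All Q111-T libraries lay below all others, the lowest of which was Q7-T replicate 2. In STHdhQ111 cells Pcdh18 fell by 1.93 on the log2 scale (SE 0.41, adjusted p = 0.00594, edgeR), against -0.52 (SE 0.39, adjusted p = 0.629) in STHdhQ7 cells. The responses differed by -1.42 (SE 0.56, adjusted p = 0.183), which was not called. With length-adjusted offsets over all libraries the difference was -1.51 (adjusted p = 0.0336) and was called. Without the 3 libraries the difference was -1.37 (adjusted p = 0.00241), without Q7-T replicate 2 alone it was -1.80 (adjusted p = 0.0108), and both were called. Pcdh18 was lower in Q111-T than Q7-T by -2.66 (SE 0.42, adjusted p = 0.000506). In nontreated cells the groups overlapped and the value was -1.24 (SE 0.40, adjusted p = 0.043), a call lost in 14 of 26 alternatives. These included each of the 6 STHdhQ111 libraries and Q7-C replicates 2 and 3, left out in turn, with values of -1.45 to -0.96.

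Pcdh19 (ENSMUSG00000051323, chrX:133582860-133688987), the gene mutated in an epilepsy that mainly affects females, fell with treatment in both lines. Its TPM was 6.54, 12.8 and 17.2 in Q7-C, 7.38, 2.55 and 5.45 in Q7-T, 16.2, 18.1 and 17.9 in Q111-C, and 5.07, 3.33 and 4.91 in Q111-T. In STHdhQ111 cells the groups were widely separated, and in STHdhQ7 cells they overlapped through Q7-C replicate 1. The log2 fold change was -1.88 (SE 0.25, adjusted p = 0.000233, edgeR) in STHdhQ111 and -1.09 (SE 0.24, adjusted p = 0.0211) in STHdhQ7 cells. The first held in all 26 alternatives and the second was lost in 9, among them without Q7-C replicate 2 or 3 and without Q7-T replicate 2 or 3, with values of -1.30 to -0.86 over the libraries left out in turn. The responses differed by -0.80 (SE 0.34, adjusted p = 0.216), which was not called with all libraries but was called with length-adjusted offsets (-1.05, adjusted p = 0.00148). The lines were not called apart in either condition. An annotated gene on the opposite strand, Gm26851, overlaps exons of Pcdh19. Summed mesenchymal markers also moved with treatment, from 5849 to 6038 TPM in Q111-C to 2280 to 2587 TPM in Q111-T and from 5860 to 6233 in Q7-C to 4468 to 4652 in Q7-T, and their part in these responses was not tested.

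**Figure D3:**
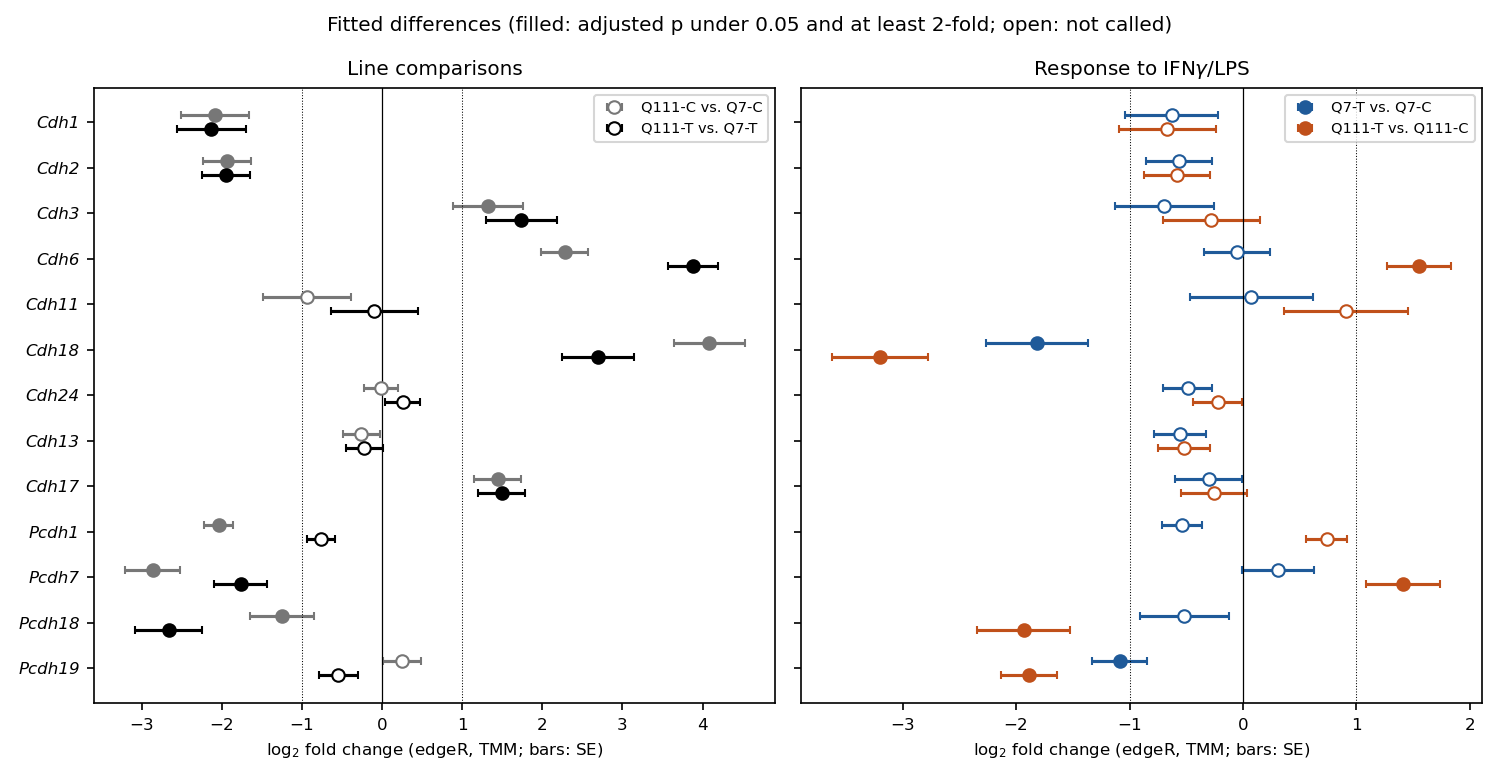
Log2 fold changes (horizontal axes; points are edgeR estimates, bars their SE) of 13 unclustered members, with line comparisons on the left and responses to IFNγ/LPS on the right. Filled points passed both thresholds, dotted lines mark a 2-fold change, and Cdh22 is left out because all STHdhQ111 libraries were at 0. Cdh6 and Pcdh7 lie above 1 and Cdh18, Pcdh18 and Pcdh19 below -1 in the Q111 response, while only Cdh18 and Pcdh19 are filled in the Q7 response. The Cdh18 values against Q7-T rest on 5 read pairs in that group.

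The Pcdhg cluster carried most of the clustered protocadherin signal and differed in composition between the lines. Its 22 genes overlap in exons on the same strand, and the table does not show how shared reads were assigned, so single genes of the cluster are uncertain. Summed over the cluster, the level was 53.9 TPM ± 9.31 (SD, n = 3) for Q7-C and 51.2 ± 22.3 for Q7-T, against 72.1 ± 5.24 for Q111-C and 47.9 ± 6.14 for Q111-T. The sums were not tested.

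Pcdhgc3 (ENSMUSG00000102918, chr18:37806364-37841873), a C-type gene expressed in many tissues, was named after its values were seen because it held the largest share of the cluster. It measured 20.9, 33.3 and 33.3 TPM in Q7-C, 33.8, 12.7 and 34.7 in Q7-T, 54.6, 64.0 and 60.1 in Q111-C, and 43.8, 35.8 and 38.5 in Q111-T. Its share of the summed Pcdhg TPM was 53.7% ± 4.41 (SD, n = 3) for Q7-C and 52.3% ± 2.33 for Q7-T, against 82.6% ± 1.44 for Q111-C and 82.2% ± 2.04 for Q111-T. As a level, however, Pcdhgc3 differed by a log2 fold change of 0.74 (SE 0.18, adjusted p = 0.013, edgeR) in Q111-C vs. Q7-C, under 2-fold, and 0.22 (SE 0.18, adjusted p = 0.362) in Q111-T vs. Q7-T. The nontreated difference was called in the 3 limma fits on TPM, with values of 1.03 to 1.06.

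Pcdhgb2 (ENSMUSG00000102748, chr18:37689828-37841873), a B-type variable exon gene, was abundant in STHdhQ7 cells and nearly undetected in STHdhQ111 cells. Its TPM was 17.4, 18.9 and 18.1 in Q7-C, 20.1, 10.4 and 21.1 in Q7-T, 0.241, 0.363 and 0.0640 in Q111-C, and 0.118, 0.123 and 0.380 in Q111-T. The lowest STHdhQ7 library was far above the highest STHdhQ111 library. The log2 fold change was -6.68 (SE 0.59, adjusted p = 1.02e-05, edgeR) in nontreated and -6.76 (SE 0.60, adjusted p = 8.41e-06) in treated cells, and the response to IFNγ/LPS was 0.05 (SE 0.45) in STHdhQ7 and -0.04 (SE 0.53) in STHdhQ111 cells. Pcdhgb2 made up 34.2% ± 5.30 of the summed Pcdhg TPM in Q7-C and 0.306% ± 0.195 in Q111-C. The other 20 genes together made up 12.1% ± 1.40 and 17.1% ± 1.30.

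Some other genes of the cluster also differed between the lines. Of the 12 that passed the filter, 6 were called in nontreated and 7 in treated cells (15.2% and 24.5% of all genes). Without the filter 6 of 22 were called in each (8.51% and 13.5% of all genes). Pcdhga6, Pcdhga7, Pcdhgc3 and Pcdhgc5 passed the filter and were called in neither. Pcdhgb7 measured 0, 0.0768 and 0 TPM in Q7-C, 0.104, 0.124 and 0.107 in Q7-T, 2.70, 2.11 and 1.85 in Q111-C and 1.97, 0.241 and 1.12 in Q111-T. It was higher in every STHdhQ111 library than in any STHdhQ7 library. Q7-C held 4 read pairs in all, so the nontreated difference is given as a ratio of pooled read pairs, 62.3 (95% exact interval 24.1 to 230.3, counting error only; adjusted p = 0.00248, edgeR). Those read pairs were all in replicate 2. The log2 fold change was 6.13 with all libraries and 5.53 to 11.4 with libraries left out in turn, the highest without that replicate. In treated cells the log2 fold change was 2.76 (SE 0.97, adjusted p = 0.0432), which was lost in 11 of 26 alternatives. These included the 3 Q111-C libraries, Q111-T replicates 1 and 3 and Q7-T replicates 1 and 3, each left out in turn, with values of 2.10 to 3.23. Pcdhga2 showed the reverse pattern, with 0.705, 1.21 and 1.37 TPM in Q7-C, 1.84, 0.698 and 1.31 in Q7-T, and no more than 0.0789 TPM in any STHdhQ111 library. The ratio of pooled read pairs was 55.6 (95% exact interval 18.7 to 272.6) in Q7-C against Q111-C, where it rested on 3 read pairs, and 30.9 (interval 13.9 to 85.3) in Q7-T against Q111-T, which had 6. Both passed the edgeR test (adjusted p = 0.00158 and 0.00225). Pcdhga3 was higher in Q111-C (1.29, 1.91 and 1.25 TPM) than in Q7-C (0.149, 0.346 and 0.550 TPM), with a log2 fold change of 1.82 (SE 0.53, adjusted p = 0.0269). It was not called without Q111-C replicate 2 or without Q7-C replicate 1 or 2, the values lying between 1.55 and 2.24 over the libraries left out. In treated cells Pcdhga3 overlapped between the lines (-0.14, SE 0.51, adjusted p = 0.853). The remaining calls, named after their values were seen, were Pcdhga5, Pcdhga4, and the treated comparison of Pcdhgb5 and the polymorphic pseudogene Pcdhgb8. Pcdhga5 was higher in STHdhQ111 cells by 2.48 in nontreated (adjusted p = 0.00216, edgeR) and 1.27 in treated cells (adjusted p = 0.0415). The treated call was lost in 13 of 25 alternatives, among them the fit without the filter and the fits without Q111-C replicate 1 or 2, Q111-T replicate 1 or 2 or Q7-T replicate 1 or 2 (1.10 to 1.58 over single libraries left out). Pcdhga4 was lower, at -1.91 (adjusted p = 0.0185) and -1.59 (adjusted p = 0.0272), calls that 18 and 19 of 25 alternatives kept. The first ended without any 1 of the Q111-C libraries or Q7-C replicate 1 (-2.18 to -1.21), the second without Q111-T replicate 1 or 3 or Q7-T replicate 1 (-1.92 to -1.32). Pcdhgb5 (adjusted p = 0.0482) kept its call in 10 of 26 alternatives and lost it without the filter and without any 1 of 9 libraries, the exceptions being Q111-T replicate 1, Q7-C replicate 1 and Q7-T replicate 2. Pcdhgb8 (adjusted p = 0.0264) kept its call in 18 of 25 and lost it without Q111-T replicate 2 or 3 or Q7-T replicate 1. In Q111-T Pcdhgb5 and Pcdhgb8 held 6 and 1 read pairs, and both were at 0 in Q7-T replicate 2, so that their treated groups overlapped. For IFNγ/LPS the lowest adjusted p of the 12 Pcdhg genes that passed the filter was 0.0876, that of Pcdhgc3 in STHdhQ111 cells. In the fit without the filter Pcdhgb1, named after its values were seen, was called lower in Q111-T than Q111-C (adjusted p = 0.00579), on 8 read pairs in Q111-C and 0 in Q111-T, and lower than in Q7-T (adjusted p = 0.00126, 15 read pairs in Q7-T). That fit also called Pcdhga12 lower in Q111-T than Q7-T (adjusted p = 0.028, 1 and 18 read pairs), likewise named after its values were seen.

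**Figure D4:**
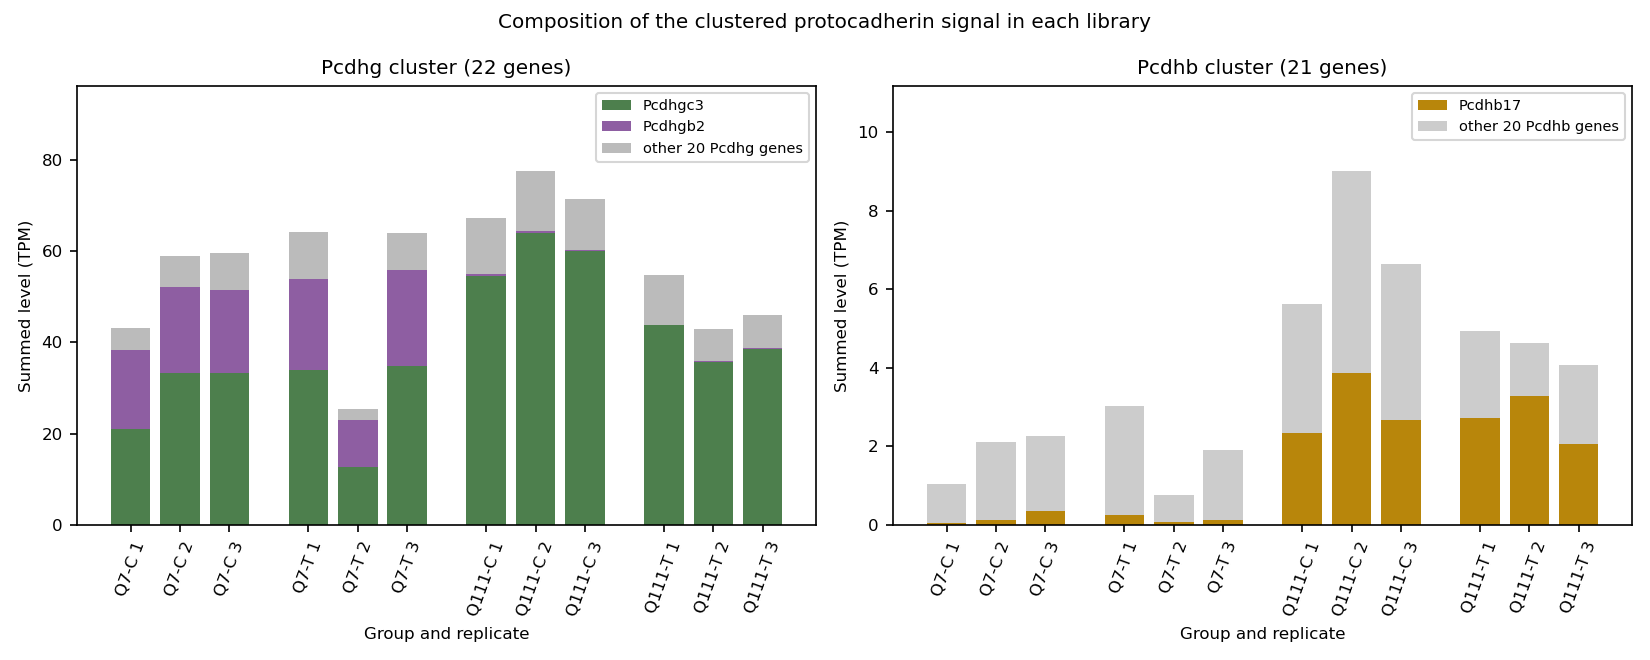
Summed TPM (vertical axes, from 0) of the Pcdhg genes (left) and Pcdhb genes (right) in each of the 12 libraries (horizontal axes), stacked by gene. Pcdhgb2 makes up 34.2% of the Pcdhg sum in Q7-C and 0.306% in Q111-C, and Pcdhb17 takes 8.98% of the Pcdhb sum in Q7-C and 41.6% in Q111-C.

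Pcdhb genes, single-exon genes of closely similar sequence, were scarce in both lines. The 21 genes summed to 1.80 TPM ± 0.669 (SD, n = 3) for Q7-C and 1.90 ± 1.13 for Q7-T, against 7.10 ± 1.74 for Q111-C and 4.55 ± 0.437 for Q111-T. Of the 21 genes 2 passed the expression filter, and the sums were not tested. Pcdhb17 (ENSMUSG00000046387, chr18:37484795-37489454) measured 0.0443, 0.139 and 0.364 TPM in Q7-C, 0.264, 0.0720 and 0.135 in Q7-T, 2.34, 3.88 and 2.67 in Q111-C and 2.73, 3.29 and 2.05 in Q111-T. Its lowest STHdhQ111 library, at 2.05 TPM, exceeded its highest STHdhQ7 library, at 0.364 TPM. It was higher by a log2 fold change of 3.78 (SE 0.58, adjusted p = 0.000608, edgeR) in nontreated and 3.81 (SE 0.59, adjusted p = 0.000444) in treated cells. Pcdhb17 held 8.98% ± 6.25 of the Pcdhb sum in Q7-C and 41.6% ± 1.40 in Q111-C.

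Pcdhb22 (ENSMUSG00000073591, chr18:37517871-37524479) was called only in treated cells. It measured 0.433, 1.28 and 0.976 TPM in Q7-C, 1.73, 0.366 and 1.02 in Q7-T, 0.843, 1.23 and 1.47 in Q111-C and 0.484, 0.481 and 0.357 in Q111-T. The treated lines overlapped through Q7-T replicate 2, and the log2 fold change was -1.496 (SE 0.42, adjusted p = 0.0154, edgeR) with all libraries and -1.91 (adjusted p = 0.00136) without the 3 set apart. It was not called without Q7-T replicate 1 (-1.07) or Q111-T replicate 3 (-1.32). All Q111-T libraries lay below all Q111-C libraries, with -1.30 (SE 0.42, adjusted p = 0.0506), just outside the threshold with all libraries. In 11 of 26 alternatives it was called, among them DESeq2, 2 other scalings, the fits without Q7-C replicate 1, Q7-T replicate 1 or Q7-T replicate 2 and the fit without the 3 libraries (-1.44, adjusted p = 0.00607). Pcdhb22 shares annotated exon sequence with Pcdhb21 on the same strand. The 3 Pcdha genes of the table did not exceed 0.0946 TPM in any library.

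Below the filter were 13 unclustered, 19 Pcdhb, 10 Pcdhg and the 3 Pcdha genes. 27 of these 45 never reached 0.2 TPM, among them Pcdh9, Pcdh10, Pcdh17, Cdh8 and Cdh10, which are prominent in brain neurons. 7 reached 0.5 TPM in 1 or 2 libraries, the others staying below. Cdh26, a cadherin of epithelial cells, measured 0.434, 0.859 and 0.819 TPM in Q7-C, 0.189, 0.229 and 0.210 in Q7-T and 0 in all 3 Q111-C libraries, and in Q111-T 1 library had 0.0245 TPM. All Q7-C libraries lay above all Q7-T libraries. In the fit without the filter Cdh26 was called in Q111-C vs. Q7-C (adjusted p = 0.00097, edgeR) and was at least 7.48-fold higher in Q7-C, and it was called in Q111-T vs. Q7-T (adjusted p = 0.0112), on 1 and 20 read pairs. Cdh5, VE-cadherin of endothelial cells, measured 0.0466, 0 and 0.0219 TPM in Q7-C, 0.220, 0.564 and 0.0556 in Q7-T, 0, 0.0257 and 0.0179 in Q111-C and 0.378, 0.257 and 0.357 in Q111-T. Treated libraries were above nontreated libraries of the same line, but the adjusted p was 0.0546 in STHdhQ111 and 0.209 in STHdhQ7 cells (edgeR, no filter). The endothelial list summed to 2.90 to 7.37 TPM for Q7-C and 3.84 to 5.98 for Q7-T, against 0.763 to 1.54 for Q111-C and 1.71 to 3.28 for Q111-T. In STHdhQ111 cells the means of Flt1 (0.636 and 1.22 TPM), Tek (0.0252 and 0.604 TPM) and Esam (0.160 and 0.478 TPM) were higher with treatment, and their part in the Cdh5 values was not tested. Of its 8 genes, all measured, Pecam1, Kdr, Cldn5, Emcn and Tie1 averaged under 0.3 TPM in every group.

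Genes that act with cadherins were taken from 7 lists by function, and the members of a list named here are the most abundant of those called. Of 13 catenins and armadillo partners, 10 passed the filter. Jup, which encodes plakoglobin, fell with IFNγ/LPS in STHdhQ7 cells from 58.4 TPM ± 6.39 (SD, n = 3) to 24.7 ± 6.14, at a log2 fold change of -1.08 (SE 0.13, adjusted p = 0.000298, edgeR). In STHdhQ111 cells Jup changed by -0.44 (adjusted p = 0.0358), under 2-fold, and the difference of the responses was not called (0.64, adjusted p = 0.0681). Ctnnal1, an α-catenin relative, fell in STHdhQ111 cells (-1.26, SE 0.18, adjusted p = 0.0005). In STHdhQ7 cells Ctnnal1 changed by -0.71 (adjusted p = 0.0435), under 2-fold, and the difference of its responses was not called (-0.54, adjusted p = 0.264). The plakophilin Pkp2 was lower in Q111-C than Q7-C (-1.02, SE 0.16, adjusted p = 0.000704), a call that 12 of 26 alternatives kept. That call ended without any of the 6 STHdhQ111 libraries or Q7-C replicate 2 or 3 (-1.13 to -0.91). Of the 10 genes, 1 was higher and 2 lower in each line comparison (15.2% and 24.5% of all genes called), 0 and 2 in the Q7 response (4.04%) and 0 and 1 in the Q111 response (11.2%), with medians of -0.28, 0.07, -0.26 and -0.25. For the difference of the responses 1 was higher and 0 lower (4.71% of all genes called), with a median of 0.09. Ctnnb1, Ctnna1 and Ctnnd1, the core catenins of the classical junction, were not called in any comparison.

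Of the 9 junction-actin linkers, all tested, Nectin2, an immunoglobulin-type adhesion molecule, rose with IFNγ/LPS in both lines. It went from 11.02 TPM ± 0.262 to 23.0 ± 3.86 in STHdhQ7 cells and from 12.8 ± 1.62 to 25.3 ± 3.52 in STHdhQ111 cells. The log2 fold changes were 1.23 (SE 0.17, adjusted p = 0.000903, edgeR) and 1.08 (SE 0.17, adjusted p = 0.000948), the latter 0.98 and under 2-fold without Q111-C replicate 1. Afdn, which encodes afadin, was lower in STHdhQ111 cells in both conditions (-1.13 and -1.03, each kept by 17 of 26 alternatives, with values of -1.37 to -0.86 and -1.30 to -0.82 over single libraries left out), and Nectin3 in treated cells (-1.34). The list's medians in the order above were -0.21, -0.36, -0.28 and -0.19.

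Among 7 other cadherin superfamily genes that passed the filter, out of 23 in the table, Celsr2, a flamingo cadherin of planar polarity, was lower in STHdhQ111 cells. It averaged 2.77 TPM ± 0.896 in Q7-C and 0.0894 ± 0.0154 in Q111-C (log2 fold change -5.21, SE 0.55, adjusted p = 3.57e-05, edgeR). Ret, a receptor tyrosine kinase with cadherin-like repeats, fell with IFNγ/LPS in STHdhQ7 and rose in STHdhQ111 cells (-1.89 and 1.52, each kept by 19 of 25 alternatives), and the difference of 3.41 was called (SE 0.55, adjusted p = 0.00424) and held in 24 of 24 alternatives. The atypical cadherin Fat1 rose in STHdhQ111 cells (1.23, SE 0.37, adjusted p = 0.0396), a call kept by 14 of 26 alternatives, with 1.09 to 1.33 over single libraries left out. Of the 7 genes, 0 were higher and 2 lower in Q111-C vs. Q7-C (15.2% of all genes called), 2 and 3 in Q111-T vs. Q7-T (24.5%), 0 and 1 in the Q7 response (4.04%) and 3 and 0 in the Q111 response (11.2%), with medians of -0.56, -0.37, -0.38 and 0.79.

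Of the 8 transcriptional repressors of Cdh1, all tested, 3 were called higher in Q111-C than Q7-C, Snai1, Snai2 and Twist1, and 1 lower (7.62% and 7.61% of all genes). Snai2 averaged 10.5 TPM ± 2.40 in Q7-C and 57.1 ± 7.38 in Q111-C (log2 fold change 2.15, SE 0.37, adjusted p = 0.00121, edgeR), Snai1 7.84 ± 1.183 and 36.6 ± 2.92 (1.86, SE 0.24, adjusted p = 0.000171) and Twist1 13.6 ± 3.55 and 38.4 ± 1.61 (1.11, SE 0.34, adjusted p = 0.0354). The Twist1 call ended without any Q111-C library or Q7-C replicate 2 or 3 (0.92 to 1.55 over single libraries left out). In treated cells Snai1 and Snai2 were called higher as well. The list also held genes that were lower in STHdhQ111 cells, Zeb2 in nontreated and Tcf4 in treated cells, both named after their values were seen, and its median log2 fold change was -0.14 in Q111-C vs. Q7-C, against -0.02 for all genes tested.

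The 15 genes that act in clustered protocadherin promoter choice, which include Ctcf, cohesin and Smchd1, were all tested, and 1 call was made over the 5 comparisons, in which 15.2%, 24.5%, 4.04%, 11.2% and 4.71% of all genes were called. This was Trim28 in Q111-T vs. Q7-T (-1.15, SE 0.18, adjusted p = 0.000568, edgeR), which was -0.93 without Q7-T replicate 2. The list's medians were 0.14, 0.08, -0.09 and -0.29. Of 14 cytoplasmic partners of protocadherins, all tested, Ptk2b, a focal adhesion kinase bound by clustered protocadherins, rose with IFNγ/LPS in STHdhQ111 cells from 2.15 TPM ± 0.267 to 9.87 ± 3.26 (2.27, SE 0.31, adjusted p = 0.000322). Its response differed between the lines by 2.79 (SE 0.43, adjusted p = 0.00333). The kinase Fyn was lower in Q111-C than Q7-C (-1.05, SE 0.12, adjusted p = 6.36e-05, kept by 21 of 26 alternatives and -0.997 without Q111-C replicate 3) and Ppp1ca lower in Q111-T than Q7-T (-1.24, SE 0.33, adjusted p = 0.0111), but -0.67 without Q7-T replicate 2. Of the 10 genes of cadherin shedding and turnover, Psenen, a γ-secretase subunit, was called lower in Q111-T than Q7-T (-1.48, SE 0.52, adjusted p = 0.0422), kept by 11 of 26 alternatives and at -0.60 without Q7-T replicate 2.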

How the data were processed

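Per the submitters' processing notes and the study's methods, paired reads were trimmed with cutadapt, checked with FastQC, aligned to GRCm38 with HISAT2 and assembled and quantified with StringTie. The authors deposited TPM and estimated counts for each gene and library. The estimated counts summed to 57505990 to 96417834 per library, and 4 counts were read as 1 read pair (14376498 to 24104458 pairs per library), because low counts that are multiples of 4 were 1.19 to 1.48 times as frequent as other even counts. This preference is weak, and no source used here gives the factor, so every read-pair number, interval and floor is conditional on it. Intervals on read pairs cover counting error only. Counts were rounded to whole numbers, genes with at least 0.5 TPM in 3 libraries kept, scaled by TMM and fitted over all 4 groups with the edgeR 4.0.16 quasi-likelihood test in R 4.3.3, with Benjamini-Hochberg adjustment. Calls needed an adjusted p under 0.05 and a 2-fold change. The scripts were tested on simulated data. Alternatives used other scalings, filters and offsets, DESeq2 1.42.0, limma 3.58.1 on log2(TPM + pseudocount), pairwise fits, a replicate block and single libraries left out. The fits without the 3 libraries set apart and with offsets adjusted for transcript length were chosen after seeing the data. Members named with full values were the unclustered genes called in any comparison or averaging at least 5 TPM and, per cluster, up to 4 called genes with the highest mean TPM; in each list of partner genes, up to 3 called genes with the highest mean TPM were named. Cdh11, Cdh26, Cdh5 and Pcdhgc3 were added after their values were seen. The members and lists were chosen with earlier results of these data known. The labels name no sequencing batch.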

Additional observations from a re-analysis of the deposited data

Results flagged for a closer look

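Responses to IFNγ/LPS that passed the test of the difference between the lines are given here. For Pcdh1 the response in STHdhQ111 cells exceeded that in STHdhQ7 cells by 1.28 on the log2 scale (SE 0.25, adjusted p = 0.0126, edgeR quasi-likelihood test), with means of 2.42 and 1.504 TPM in Q7-C and Q7-T and 0.722 and 1.13 TPM in Q111-C and Q111-T. For Cdh6 it exceeded that in STHdhQ7 cells by 1.60 (SE 0.40, adjusted p = 0.0398), with means of 0.148 and 0.126 TPM in Q7-C and Q7-T and 0.878 and 2.42 TPM in Q111-C and Q111-T. Without the 3 libraries with low long transcripts the values were 1.30 (adjusted p = 0.00241) and 1.84 (adjusted p = 0.00982). The Cdh6 call was lost in 14 of 25 alternatives, among them 9 of the 12 single libraries left out (1.26 to 1.74 over the 12), no filter and library totals. In every pair of libraries of STHdhQ111 cells the treated one was higher for both genes. Groups of 3 are too small for a test of single outlying libraries, so none was made.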

How the results depend on the processing

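Of 38 calls on named members, 20 held under every alternative and 18 were lost under at least 1, with 0 reversed. Over 984 alternative values, 880 kept the call. Of 29 calls on named partner genes, 12 held throughout and 0 reversed. The number of members called in Q111-C vs. Q7-C was 17, with 10 by limma on log2(TPM + 1) and 13 to 19 with single libraries left out. In Q111-T vs. Q7-T it was 18, with 10 and 8 by limma on log2(TPM + 0.5) and log2(TPM + 1), and 12 to 19 with libraries left out. In Q7-T vs. Q7-C it was 2, with 1 for counts divided by 4, for length-adjusted offsets, for no filter and for the replicate block, 0 by limma with each of 3 pseudocounts and in the pairwise fit, and 0 to 2 with libraries left out. Both calls were lower in Q7-T, whereas without Q7-C replicate 2 the 1 call was higher. In Q111-T vs. Q111-C it was 5, with 3 by limma on log2(TPM + 1) and 4 to 7 with libraries left out. For the difference of responses it was 2, with 5 both without the 3 libraries set apart and with length-adjusted offsets, 1 for library totals, for limma with 0.1 or 1 added and for the replicate block, and 1 to 4 with libraries left out, the 4 being without Q7-T replicate 2. Both calls were higher in STHdhQ111 cells, whereas the 1 call by limma with 0.1 or 1 added was lower, that of Cdh18. Other fits also gave calls in both directions. Among these, 3 were higher and 2 lower without the 3 libraries, 2 and 3 with length-adjusted offsets, and 1 and 1 without the filter. The mean Pcdhg sum in Q111-C was 61.3 TPM rather than 72.1 TPM after rescaling by the median of ratios. The cause of these shifts was not tested.

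Groups shared replicate numbers, but over 18 same-numbered pairs the correlation of deviations ran from -0.416 to 0.303, with 6 above 0.1. None of the libraries correlated best with its own number in every other group. The highest correlation, 0.456, was between Q7-C replicate 1 and Q7-T replicate 2, both among the 3 libraries set apart. Their common shift with transcript length could hide a pairing, so the check cannot decide whether the numbers pair the samples. With the replicate block 15, 15, 1, 5 and 1 members were called in the 5 comparisons, and 33 of 38 named calls were kept, those lost being Cdh3 and Pcdh18 in Q111-C vs. Q7-C, Pcdhgb7 in Q111-T vs. Q7-T, Cdh18 in Q7-T vs. Q7-C and the Cdh6 difference of responses. Depth limits the genes with few read pairs, Cdh18 in Q7-T, Pcdhgb7 in Q7-C, Pcdhga2 in Q111-C, and Pcdhga2, Pcdhgb5 and Pcdhgb8 in Q111-T.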
